A study of Homo sapiens with 8 samples.

Results

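The 9 genes described here drive or mark the switch between the epithelial and the mesenchymal state: the cadherin genes CDH1 and CDH2, the filament gene VIM, and the genes of 6 transcription factors of the SNAI, ZEB and TWIST families. Every promoter window that carries one of these names was taken from the tables of both replicate sets, whatever its strand. This gave 14 windows of 38157, of which all 14 were among the 36440 windows with enough reads to test. Trimethylation of lysine 9 of histone H3 (H3K9me3) was measured at these windows by chromatin immunoprecipitation and sequencing (ChIP-seq) in SiHa, an established human cervical cancer cell line of squamous origin, grown in DMEM medium with serum and not otherwise treated. Cells were seeded in a transwell chamber, in which they can crawl through a porous membrane, and 10 h later the cells that had crossed (migrated) and those that had not (non-migrated) were collected apart. An input library (sonicated chromatin, no antibody) and an H3K9me3 library of each fraction were made in each of 2 paired replicate sets, so that 8 libraries fall into 4 groups of 2.

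In epithelial cells, E-cadherin, the product of CDH1, joins neighbouring cells at adherens junctions. In the epithelial-mesenchymal switch, SNAI, ZEB and TWIST factors bind E-box sequences and repress CDH1 and other junction genes, while N-cadherin (CDH2) and the intermediate filament protein vimentin (VIM) are markers of the mesenchymal state. H3K9me3 is a mark of silent heterochromatin, read by HP1 proteins and written by enzymes such as SUV39H1 and SETDB1. RNA was not among the data used here, so the expression of these genes in either fraction is not known from them, nor could the epithelial label of the line be checked by its markers.

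RefSeq promoter sequences on GRCh38.p14, which reach from 250 bases before to 50 bases after a start, are printed with every CpG in capitals. They are given for the 3 genes that have both a measured own-strand window and such a sequence. The sequences let CpG content at a RefSeq start be read beside H3K9me3 at a window of the same gene. The first, of CDH2, is chr18:28177081-28177380 on the minus strand, the next, of ZEB2, is chr2:144520070-144520369 on the minus strand, and the last, of TWIST2, is chr2:238847835-238848134 on the plus strand.
CDH2: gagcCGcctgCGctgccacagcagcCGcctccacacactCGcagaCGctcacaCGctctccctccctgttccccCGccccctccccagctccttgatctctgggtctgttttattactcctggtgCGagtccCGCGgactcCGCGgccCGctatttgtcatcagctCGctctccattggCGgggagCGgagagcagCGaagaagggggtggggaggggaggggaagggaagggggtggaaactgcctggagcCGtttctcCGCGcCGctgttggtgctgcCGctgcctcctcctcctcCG
ZEB2: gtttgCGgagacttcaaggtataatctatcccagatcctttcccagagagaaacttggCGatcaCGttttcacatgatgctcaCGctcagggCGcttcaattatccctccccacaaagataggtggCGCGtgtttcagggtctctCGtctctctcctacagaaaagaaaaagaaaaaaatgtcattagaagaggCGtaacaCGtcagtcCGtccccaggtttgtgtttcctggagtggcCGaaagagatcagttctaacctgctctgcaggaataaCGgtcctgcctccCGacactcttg
TWIST2: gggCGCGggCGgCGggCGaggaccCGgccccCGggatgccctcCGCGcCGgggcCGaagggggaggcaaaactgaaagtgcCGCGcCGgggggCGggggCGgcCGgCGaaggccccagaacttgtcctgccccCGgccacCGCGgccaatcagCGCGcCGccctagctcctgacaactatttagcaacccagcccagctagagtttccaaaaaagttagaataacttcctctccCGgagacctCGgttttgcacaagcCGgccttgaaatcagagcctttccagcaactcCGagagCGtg
The CDH2 sequence holds 23 CpGs, that of ZEB2 holds 14 and that of TWIST2 holds 29, beside a median of 14 over 35116 RefSeq promoters. CDH2 has another RefSeq start in the gene, at chr18:28036592-28036891, with 4 CpGs. The E-box core CAGGTG or its complement CACCTG, searched on both strands, occurs in none of the 3 printed sequences and in 20.6% of all promoters of this length. The sequences were paired with the windows by gene and strand, since the windows are given on another build (hg19). Positions were not matched, so a sequence can belong to another start of the gene and lie outside its window.

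Libraries differed in depth by set. Reads in promoter windows ran from 88028 to 684949 in the libraries of set 1 and from 984835 to 1729061 in those of set 2, and the shallowest was the H3K9me3 library of migrated cells in set 1, with a median of 1 read per window. Its labels conflict on the replicate number, which was taken from the title. Set 1 was prepared with another kit than set 2 and with a gel step, and had many duplicate reads per the labels' protocols. Levels below are CPM, the reads of a window with 0.5 added per 1000000 promoter reads of its library, scaled by trimmed means of M values (TMM), and H3K9me3 over input is the log2 ratio of these levels, relative to the centre that this scaling sets. On this scale the median over all tested windows was -0.13. A call is a Benjamini-Hochberg adjusted p under 0.05 from limma over all 36440 windows. The model holds the replicate set and both fractions, and it also fits the difference between the sets in H3K9me3 over input. The ± is the standard error of limma's estimate. It, limma's intervals and the p-values therefore do not measure that difference between the sets. All values are averages over a fraction's cells, so a mark in fewer cells and less of the mark per cell cannot be told apart.

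Over both fractions, 6 of the 14 windows were called higher in H3K9me3 than in input, 2 were called lower, and 6 were not called. Of all tested windows, 20.8% were called higher and 29.9% lower in the same fit. The windows called higher belonged to CDH2 (both windows), ZEB2, ZEB1, VIM and TWIST1, and those called lower to SNAI1 and SNAI2. Of those called higher, 1 (of CDH2) lay on its gene's own strand and 5 on the opposite strand. At CDH2, ZEB2 and TWIST1 the opposite-strand start site lay at -223, -6.2 and -5.2 kb from the own-strand one (negative is lower coordinates). No own-strand window carries the name of ZEB1 or VIM. Windows on their strands are listed under other names. The one under ZEB1-AS1 was called lower (-1.98), against the call at ZEB1, and the one under RP11-124N14.4, near VIM, was called higher (0.95). These 5 calls are thus not readings at the gene's own-strand window. The estimates ran from 2.14 at CDH2 to -2.16 at SNAI1. These calls depend on the scaling: with the constants that the deposited values carry, none of the 14 windows was called higher and 6 were called lower (SNAI1, SNAI2, the own-strand windows of ZEB2 and TWIST1, the upstream window of ZEB1 and the downstream window of CDH1), and the median of all tested windows shifted by -1.17.

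**Figure D1:**
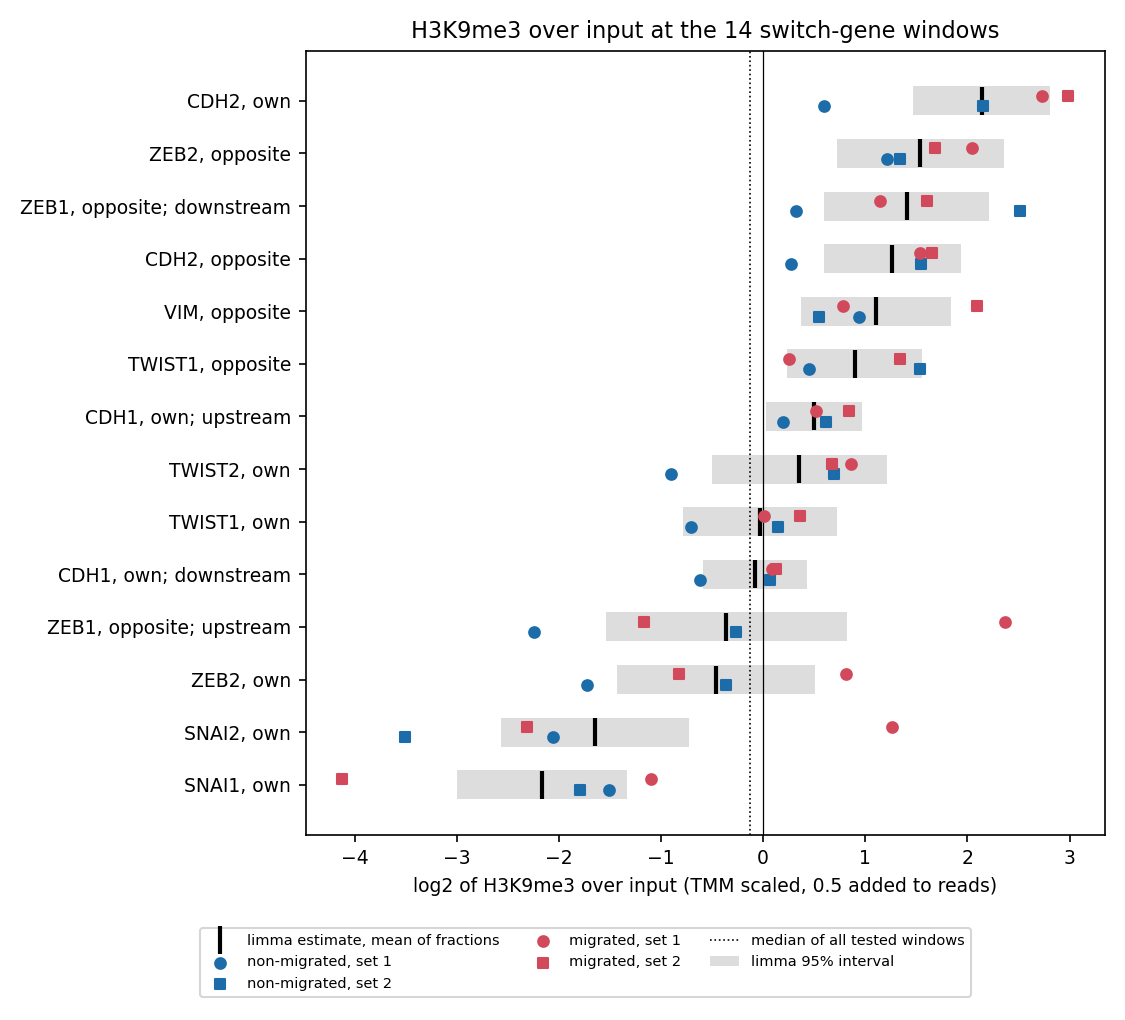
H3K9me3 over input (x axis, log2) at each of the 14 windows (y axis, with the window's strand relative to the gene), ordered by limma's estimate for the mean of both fractions (black bar) with its 95% interval (grey). Circles are set 1 and squares set 2, blue is non-migrated and red migrated, and the dotted line is the median of all tested windows; CDH2 stands highest at 2.14 and SNAI1 lowest at -2.16.

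CDH2 had the highest H3K9me3 relative to input of the switch genes, although the H3K9me3 level itself, in CPM, was higher at the upstream CDH1 window in all 4 libraries. The own-strand window of CDH2, chr18:25757310-25759410 on the minus strand, held in set 1 28.1 CPM in the input of non-migrated cells, 42.5 in their H3K9me3 library, 15.8 in the input of migrated cells and 105 in their H3K9me3 library. In set 2 the same libraries held 19.9, 88.2, 17.3 and 137 CPM. H3K9me3 lay above input in all 4 pairs, least in the non-migrated pair of set 1, and the 4 H3K9me3 levels did not overlap the 4 input levels. The ratio was 4.40-fold, with a log2 of 2.14 ± 0.33 and an adjusted p of 1.91e-05 (limma), which put the window at percentile 98.5 of all tested windows. It was called in each fraction, at 1.60 ± 0.41 in non-migrated cells (adjusted p = 0.00611) and at 2.68 ± 0.41 in migrated cells (adjusted p = 7.38e-05). The estimate over both fractions was 0.97 with the deposited scaling, where the call was lost, and lay between 1.97 and 2.31 when any single library was left out. The call in non-migrated cells was lost without their input of set 2 (1.22) and without their H3K9me3 library of set 2 (1.10).

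The other CDH2 window, chr18:25532483-25534583, lies on the strand opposite to the gene, at lower coordinates. It held 30.5, 36.9, 26.8 and 77.6 CPM in set 1 (input and H3K9me3 of non-migrated, then of migrated cells) and 14.1, 41.2, 15.5 and 48.8 in set 2. H3K9me3 was again above input in all 4 pairs, by the least in non-migrated cells of set 1, and every H3K9me3 level was above every input level. The ratio was 2.40-fold, at 1.26 ± 0.32 (limma, adjusted p = 0.00257). It was called in migrated cells (1.46 ± 0.41, adjusted p = 0.00807) and not in non-migrated cells (1.07 ± 0.45, adjusted p = 0.0746). The call over both fractions was lost without the migrated input of set 1 or the non-migrated input of set 2 (1.17 in each case), and with the deposited scaling (0.10). In migrated cells it was lost without the migrated input of set 1 (1.28) or set 2 (1.60) and without that fraction's H3K9me3 library of set 1 (1.17).

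CDH1, which the SNAI and ZEB factors repress, had 2 windows, both on its own strand, and neither was called. The upstream window, chr16:68769128-68771228, held 72.0 and 82.3 CPM in input and H3K9me3 of non-migrated cells and 85.8 and 123 in those of migrated cells in set 1. In set 2 these levels were 103 and 158 in non-migrated and 88.2 and 158 in migrated cells. H3K9me3 exceeded input in all 4 pairs, by less in set 1 than in set 2, and the ranges of input and H3K9me3 overlapped. The ratio was 1.41-fold, at 0.50 ± 0.23 with a 95% interval from 0.03 to 0.97 (limma, adjusted p = 0.0686), at percentile 68.7. It was called with 2 reads added in place of 0.5 (0.55), without precision weights (0.54), with scaling to ribosomal and oxidative phosphorylation promoters (1.14) and when the migrated H3K9me3 library of set 2 was left out (0.67), while the deposited scaling gave -0.60 without a call. The downstream window, chr16:68774383-68776483, was at -0.08 ± 0.25 with a 95% interval from -0.59 to 0.43. Its ratios were -0.61 and 0.09 in set 1 and 0.06 and 0.12 in set 2 (non-migrated, then migrated). The non-migrated pair of set 1 was the lowest, with a 95% counting interval from -1.71 to 0.29. With the deposited scaling the downstream window was called lower over both fractions (-1.23) and in migrated cells (-1.50). Both windows were the best covered of the 14, since their input held 2.81 to 4.30 times the reads of the median window, and copy number at this locus was not tested. The intervals of the upstream CDH1 window and of the own-strand CDH2 window, which begins at 1.47, do not overlap.

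VIM had 1 window, chr10:17276732-17278832, on the strand opposite to the gene. It held 28.1, 53.9, 18.5 and 32.0 CPM in set 1 (input and H3K9me3 of non-migrated, then of migrated cells) and 21.0, 30.8, 12.02 and 51.4 in set 2. H3K9me3 was above input in all 4 pairs and by far the most in the migrated pair of set 2, and every H3K9me3 level was above every input level. The ratio was 2.15-fold, at 1.11 ± 0.35 (limma, adjusted p = 0.0121), and it was called in migrated cells (1.70 ± 0.48, adjusted p = 0.00836) and not in non-migrated cells (0.51 ± 0.45). The call over both fractions rests on most of the libraries: it held only when the migrated H3K9me3 library of set 1 or the non-migrated H3K9me3 library of set 2 was left out, and was lost without any of the other 6 (0.60 to 1.16), with median-of-ratios scaling (0.81) and with the deposited scaling (-0.055). In migrated cells it was lost without the migrated input of set 1 (1.82) or set 2 (1.61), without that fraction's H3K9me3 library of set 2 (0.70) and without precision weights (1.44). No window on VIM's own strand carries its name. A window on that strand 6.57 kb away, chr10:17268258-17270358, is listed under RP11-124N14.4 and was called at 0.95 ± 0.33 (adjusted p = 0.0178). The opposite-strand window of the same transcript was called at 1.29 ± 0.31 (adjusted p = 0.00165). These companion windows were picked after their values were seen.

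The SNAI genes encode zinc finger repressors of CDH1 (Snail and Slug), and their own-strand windows were the only 2 called lower. The SNAI1 window, chr20:48597536-48599636, held 40.3 CPM in input and 14.2 in H3K9me3 of non-migrated cells, and 48.8 and 22.8 in migrated cells, in set 1. In set 2 these levels were 59.6 and 17.2 in non-migrated cells and 79.5 and 4.56 in migrated cells. Every H3K9me3 level lay below every input level, and the migrated library of set 2, with 3 reads, was the lowest. The ratio was 0.223-fold, at -2.16 ± 0.40 (limma, adjusted p = 0.00014), at percentile 9.8. It was called in both fractions, at -1.52 ± 0.53 in non-migrated (adjusted p = 0.0329) and -2.80 ± 0.58 in migrated cells (adjusted p = 0.000951). The call over both fractions held under every alternative that gives a test, with values from -3.28 to -1.47. The call in non-migrated cells was lost without any of the 4 inputs (-1.60 to -1.49) and without the non-migrated H3K9me3 library of set 1 (-0.44), with scaling to ribosomal and oxidative phosphorylation promoters (-0.89), without precision weights (-1.65) and without the replicate block (-1.60), and that in migrated cells without the migrated H3K9me3 library of set 2 (-1.32).

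The SNAI2 window, chr8:49834199-49836299 on the minus strand, held 35.4, 8.51, 17.2 and 41.1 CPM in set 1 and 29.7, 2.61, 22.6 and 4.56 in set 2, in the same order. H3K9me3 was below input in 3 of the 4 pairs and above it in the migrated pair of set 1, whose H3K9me3 library had 4 reads here. That pair alone had a ratio of 1.26 with a 95% counting interval from -0.94 to 2.87, and the others lay at -2.06, -3.51 and -2.31. Over both fractions the ratio was 0.319-fold, at -1.65 ± 0.44 (limma, adjusted p = 0.00375), and the call was lost with scaling to ribosomal and oxidative phosphorylation promoters (-1.01). It was called in non-migrated cells (-2.68 ± 0.65, adjusted p = 0.00424) and not in migrated cells (-0.61 ± 0.58). The first of these calls was lost without the non-migrated H3K9me3 library of set 1 (-2.10) or the non-migrated input of set 2 (-3.11).

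ZEB1 and ZEB2 encode zinc finger and homeobox repressors that are themselves held down by miR-200 microRNAs in epithelial cells. ZEB1 had 2 windows, both on the strand opposite to the gene. The downstream one, chr10:31652837-31654937, held 15.9, 19.9, 10.3 and 22.8 CPM in set 1 and 11.2, 64.2, 17.3 and 52.7 in set 2. Both sets had H3K9me3 above input in both fractions, with much the larger levels in set 2, where 61 and 40 H3K9me3 reads stood beside 3 and 2 in set 1, and no H3K9me3 level was below an input level. The ratio was 2.65-fold, at 1.41 ± 0.39 (limma, adjusted p = 0.00471). It was called in non-migrated cells (1.67 ± 0.49, adjusted p = 0.0131) and not in migrated cells (1.14 ± 0.50, adjusted p = 0.0693). Leaving out the migrated input of set 1 or the non-migrated input of set 2 ended the call over both fractions (1.08 in each case), as did a quasi-Poisson model of the reads (1.35) and the deposited scaling (0.25). The call in non-migrated cells was lost without the migrated input of either set (1.51 in each case), without the non-migrated input of set 2 (0.89) and without the non-migrated H3K9me3 library of set 2 (1.303), and migrated cells gained it without the non-migrated H3K9me3 library of set 1 (1.21) or set 2 (1.31).

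The upstream ZEB1 window, chr10:31647419-31649519, had 0 to 8 reads in its H3K9me3 libraries, and its ratios ran from -2.24 to 2.37 with no order by fraction or set. It was not called (-0.36 ± 0.57, with a 95% interval from -1.54 to 0.82). Without the migrated H3K9me3 library of set 1 or the non-migrated H3K9me3 library of set 2 it was called lower (-1.55 in each case), as with the deposited scaling (-1.47), and it was called higher in migrated cells without their H3K9me3 library of set 2 (3.03) and lower in non-migrated cells without theirs (-3.68). The nearest window on ZEB1's own strand, chr10:31605424-31607524, is listed under the antisense gene ZEB1-AS1 and was called lower, at -1.98 ± 0.46 (adjusted p = 0.00123). Its start site lay at -45.5 kb from that of the downstream ZEB1 window, and this window was not matched to a RefSeq start of ZEB1. It was picked after its values were seen.

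ZEB2 had a window on each strand. The opposite-strand window, chr2:145273982-145276082, held 8.54, 19.9, 14.42 and 59.4 CPM in set 1 and 17.6, 44.4, 13.2 and 42.3 in set 2. H3K9me3 exceeded input in all 4 pairs by similar ratios (1.22, 2.04, 1.34 and 1.68), and its levels did not overlap those of input. The ratio was 2.91-fold, at 1.54 ± 0.39 (limma, adjusted p = 0.00251), at percentile 94.0. It was called in migrated cells (1.72 ± 0.49, adjusted p = 0.00857) and just missed the threshold in non-migrated cells (1.36 ± 0.52, adjusted p = 0.0513). The call over both fractions was lost with the deposited scaling (0.44). In migrated cells it was lost without their H3K9me3 library of set 1 (1.11) or their input of set 2 (0.97), and in non-migrated cells it was gained without the H3K9me3 library of set 1 of either fraction (1.84 and 1.17). The own-strand window, chr2:145282047-145284147, was not called (-0.46 ± 0.47, with a 95% interval from -1.44 to 0.51), except with the deposited scaling, as lower (-1.67). Its H3K9me3 libraries held 1 to 7 reads, and 3 of its 4 ratios lay below 0.

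TWIST1 and TWIST2 encode basic helix-loop-helix factors that bind E-boxes. The opposite-strand window of TWIST1, chr7:19150097-19152197, held 35.4, 48.2, 26.8 and 32.0 CPM in set 1 and 21.0, 61.1, 16.7 and 42.3 in set 2. H3K9me3 was above input in all 4 pairs, more so in set 2, and the migrated H3K9me3 level of set 1 fell below the non-migrated input level of that set. The ratio was 1.86-fold, at 0.90 ± 0.32 (limma, adjusted p = 0.0225). The call was lost with median-of-ratios scaling (0.58), with TMM computed over the tested windows only (0.68, an alternative chosen after seeing the data), with the deposited scaling (-0.26) and without any single library other than the H3K9me3 library of migrated cells in set 1 or of non-migrated cells in set 2 (0.76 to 0.94). It was not called within either fraction, but was in non-migrated cells without the migrated H3K9me3 library of set 1 (1.01) or set 2 (1.00). The own-strand windows of both genes were not called: TWIST1, chr7:19157195-19159295, was at -0.03 ± 0.37 and TWIST2, chr2:239754673-239756773, at 0.35 ± 0.42. The TWIST1 window was called lower with the deposited scaling (-1.20), and that of TWIST2 higher with scaling to ribosomal and oxidative phosphorylation promoters (0.98). Their ratios were below 0 in non-migrated cells of set 1, where their H3K9me3 libraries had 2 reads and 1 read, and between 0.01 and 0.86 in the other pairs. A window of AC003986.7 that starts beside TWIST1 on the other strand was at 0.24 ± 0.36 (adjusted p = 0.595) and shares most of its bases with TWIST1's own-strand window.

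Within the 14 windows, the calls differed by strand. Of the 8 windows on a gene's own strand, 1 was called higher (CDH2) and 2 lower (SNAI1 and SNAI2), with a median of -0.05. Of the 6 on the opposite strand, 5 were called higher and none lower, with a median of 1.19. No such division was seen over the windows of other genes whose strand RefSeq gives: 16% of 13119 own-strand windows and 15.5% of 4823 opposite-strand windows were called higher, and 36.6% and 37.1% were called lower. The windows of a gene share its locus, and the difference between the strands was not tested. The opposite-strand windows also lie at other places than the own-strand ones, so strand and place cannot be told apart.

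**Figure D2:**
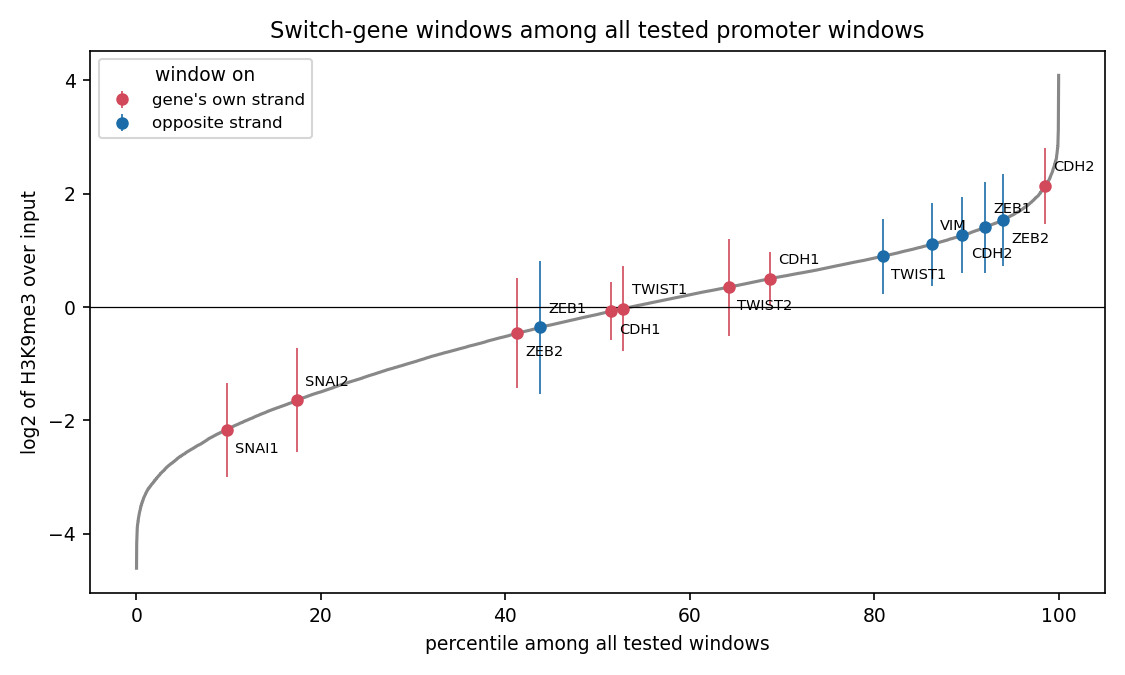
The 36440 tested windows ordered by H3K9me3 over input (grey line, y axis in log2 against percentile on the x axis), with the 14 switch-gene windows placed on it with limma's 95% intervals. Red points are windows on the gene's own strand, from percentile 9.8 (SNAI1) to 98.5 (CDH2), and blue points are windows on the opposite strand, 5 of which lie at percentile 81.0 or above.

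In order of level the windows ran from CDH2 (own strand) through ZEB2, the downstream window of ZEB1, CDH2, VIM and TWIST1 (all opposite strand) to the upstream CDH1 window, TWIST2, TWIST1 and the downstream CDH1 window (own strand), then the upstream ZEB1 window, ZEB2 (own strand), SNAI2 and SNAI1. The 95% intervals of all neighbours in this order overlapped. The interval of SNAI1 (-2.99 to -1.33) and that of SNAI2 (-2.56 to -0.73) lay wholly below those of all 6 windows called higher, of which the lowest bound was 0.24.

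Some of these levels were shared by the surrounding windows and some were not. Over both fractions the SNAI2 window had a lower estimate than any near it. Of the 12 tested windows of other genes within 500 kb, 10 were called higher, none was called lower and the lowest estimate was 0.70. SNAI2 itself was at -1.65, on 1 to 4 reads per H3K9me3 library, and the difference from its neighbours was not tested. Its nearest neighbours, AC026904.1 and C8orf22, were 2.51-fold and 1.85-fold above input (limma, adjusted p = 0.000409 and 0.0392). In the migrated pair of set 1 SNAI2, at 1.26, lay above both (1.22 and 0.049), and in the other pairs below both. SNAI1 lay among windows with little of the mark, 14 of its 23 neighbours being called lower and none higher, with a median of -0.95. Around VIM 6 of 12 neighbours were called higher and 3 lower, with the nearest on the far side, ST8SIA6, at 3.62-fold (adjusted p = 2.59e-05). Around TWIST1 3 of 6 were called higher and none lower.

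CDH2 had no other gene's window within 500 kb. The nearest were those of CHST9, 992 kb from the own-strand window on one side and called at 1.91-fold (adjusted p = 0.0341), and of a U6 gene, 871 kb away on the other side and called at 2.35-fold (adjusted p = 0.00641). CDH2 was thus flanked at a distance by windows that were called higher too, at smaller ratios than its own 4.40. Around CDH1 5 of 23 neighbours were called higher and 9 lower (median -0.56), around ZEB1 1 of 7 and 3 of 7 (median -0.93), around ZEB2 none of 4 in either direction, and around TWIST2 1 of 9 in each direction. Neighbouring windows can share fragments and copy number, so they are not independent of each other.

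**Figure D3:**
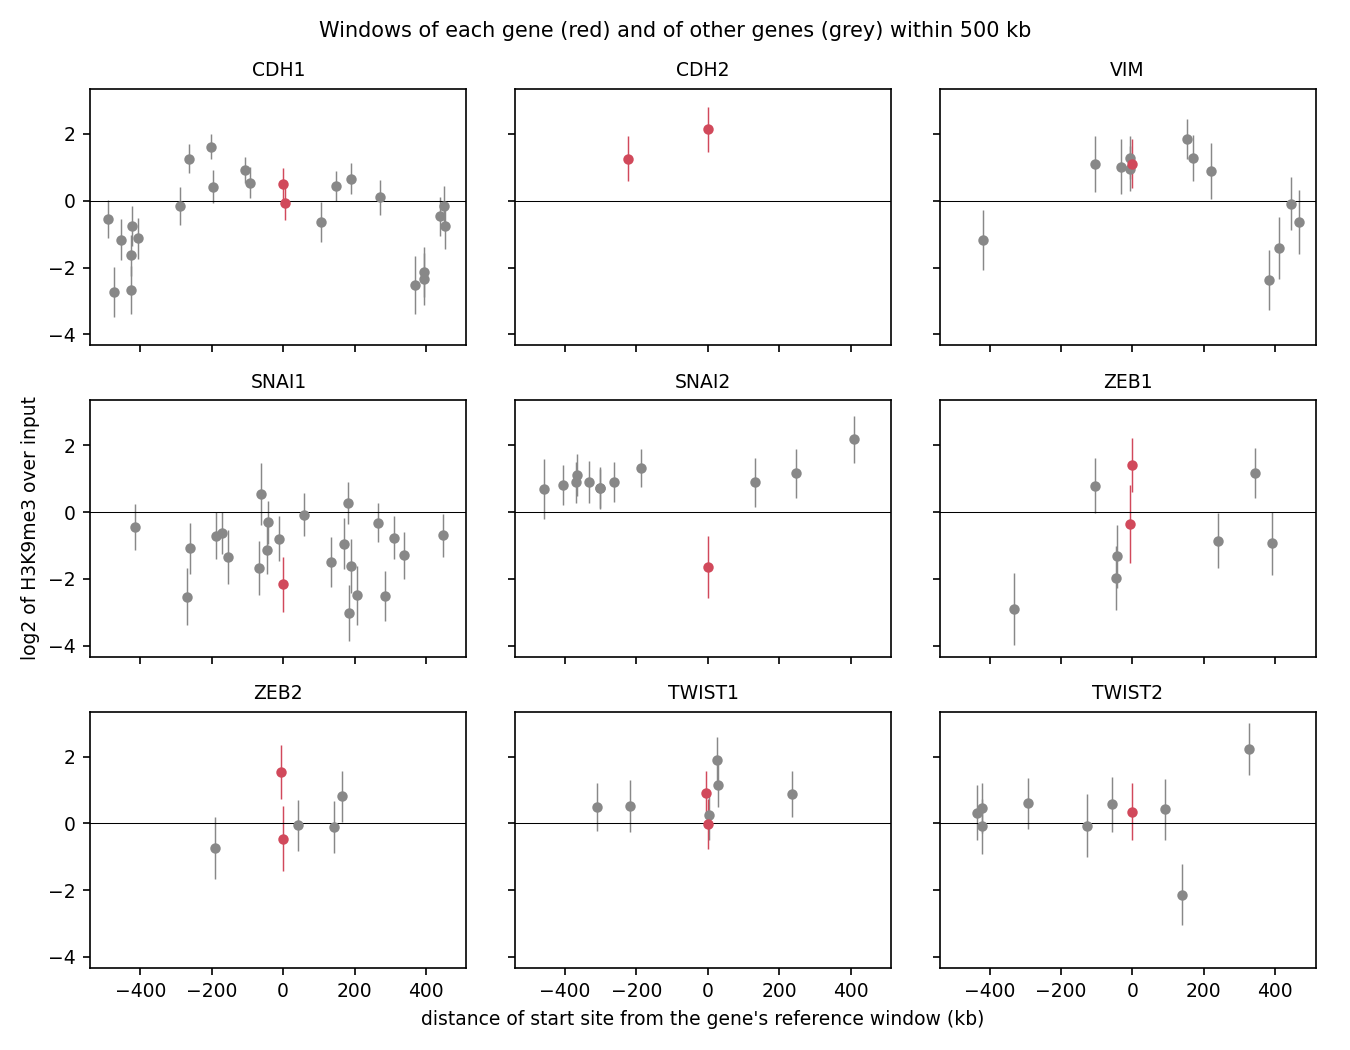
H3K9me3 over input (y axis, log2, with 95% intervals) of all tested windows within 500 kb of each gene, against the distance of their start sites in kb (x axis). Red points carry the gene's name and grey points are other genes' windows; the red point of SNAI2, at -1.65, lies below all 12 grey points of its panel, and CDH2 has no grey point.

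The promoters most like each called window were sought among 29241 windows with at least 20 input reads on average, by the distance between the 4 ratios (2 fractions in 2 sets). For the own-strand window of CDH2 these were ADAMTS5 (distance 0.28), a matrix protease gene, and ZIM2 (0.38), a zinc finger gene, and 73 windows lay within a distance of 1. For SNAI1 they were PGS1 (0.25) and KIAA0247 (0.56), with 50 windows within that distance, and for SNAI2 they were KIFC1 (0.52) and R3HDM2 (0.54), with 9. The other called windows had more company. The VIM window was most like those of TAF1 and AC005323.1, with 535 windows within a distance of 1, and the downstream ZEB1 window like that of SYN3 and a window known by a clone name, with 199. For the opposite-strand windows of CDH2, ZEB2 and TWIST1 the nearest were RP4-639J15.1 and HAVCR1, AC018685.1 and AF196970.3, and ST6GAL2 and a window known by a clone name, with 1094, 820 and 1764 windows within that distance. The 4 ratios share libraries and depth, and the likeness is a description without a test.

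Genes with CpG-dense promoters had low H3K9me3 more often than high, and CDH2, whose promoter is printed above, was among those with a high level. The own-strand windows of other genes as a whole also had it low more often, with 16% called higher and 36.6% lower. Of 2833 genes with 15 to 29 CpGs in the RefSeq promoter, 15.2% were called higher and 43.9% lower, with a median of -0.73. CDH2 and TWIST2 fall in this range, CDH2 called higher and TWIST2 not called. Of 1213 genes with 5 to 14 CpGs, among which the printed ZEB2 sequence falls, 25.0% were called higher and 22.4% lower. The own-strand window of ZEB2 was not called. Of 1354 genes with 0 to 4 CpGs, the range of CDH2's other RefSeq start, 23.6% were called higher and 10.9% lower. Of 2527 genes with 30 to 200 CpGs, 11.9% were called higher and 48.2% lower. Since sequences and windows were not matched by position, CpG content and H3K9me3 can come from different starts of a gene.

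Within the fractions taken alone, 2 of the 14 windows were called higher and 2 lower in non-migrated cells, where 11.5% and 18.4% of all tested windows were called. The former were CDH2 (own strand) and ZEB1 (downstream), and the latter SNAI1 and SNAI2. In migrated cells 4 were called higher and 1 lower, where 16.2% and 23.1% of all tested windows were called. These were both CDH2 windows, VIM and ZEB2 (opposite strand), and SNAI1. A call in one fraction only does not show a difference between them, which was tested separately as the change of H3K9me3 over input from non-migrated to migrated cells.

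No change between the fractions was called at any of the 14 windows, and none at any of the 36440 tested windows (0% higher and 0% lower, limma). At an unadjusted p under 0.05 there were 2 of the 14 (SNAI2 and the own-strand window of CDH2) and 1221 of all windows, or 3.35%. A share of 0.05 would be reached where no window changed. With no other tool run for this comparison, the count rests on limma. The change lay above 0, that is toward more H3K9me3 in migrated cells, at 11 of the 14 windows, of which 7 turned negative with the deposited scaling. Over all tested windows the median change was -0.023. Several of the 14 windows share a gene, so this count is not one of independent windows, and it was not tested. The sign was the same in both sets at 8 windows, positive at 7 and negative at 1 (TWIST1, opposite strand, with -0.19 and -0.20), and it differed between the sets at 6. Where 1 library of a group was left out, the upstream ZEB1 window was called for a change without the non-migrated H3K9me3 library of set 2 (4.25), and no other window was.

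At SNAI2 the ratio went from -2.06 to 1.26 in set 1 and from -3.51 to -2.31 in set 2, differences of 3.32 and 1.20. The estimate was 2.07 ± 0.86 with a 95% interval from 0.29 to 3.85 (limma, unadjusted p = 0.0242, adjusted p = 0.999). The H3K9me3 libraries of this window held only 1 to 4 reads. At the own-strand window of CDH2 the ratio went from 0.60 to 2.73 in set 1 and from 2.15 to 2.99 in set 2. The estimate was 1.08 ± 0.50 with a 95% interval from 0.05 to 2.11 (unadjusted p = 0.0414, adjusted p = 0.999), or 2.11-fold, and leaving out libraries or changing the scaling, pseudocount, filter, weights or block gave 0.52 to 1.73. Both sets moved the same way at these 2 genes, with the smaller step in the deeper set. The 2 windows were picked by a p-value from these same sets, so this agreement is no separate support.

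At VIM and SNAI1 the sets differed in sign. VIM was at 1.19 ± 0.61, with -0.16 in set 1 and 1.55 in set 2. SNAI1 was at -1.28 ± 0.77, with 0.41 in set 1 and -2.33 in set 2, where 16 reads in the non-migrated H3K9me3 library stood beside 3 in the migrated one. CDH1, with the most reads, had the narrowest intervals of the 14: its upstream window changed by 0.17 with a 95% interval from -0.49 to 0.84, and its downstream window by 0.22 with an interval from -0.56 to 1.01. The changes at the other windows ran from -0.53 (ZEB1, downstream) to 1.26 (ZEB1, upstream), and all their intervals held 0.

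**Figure D4:**
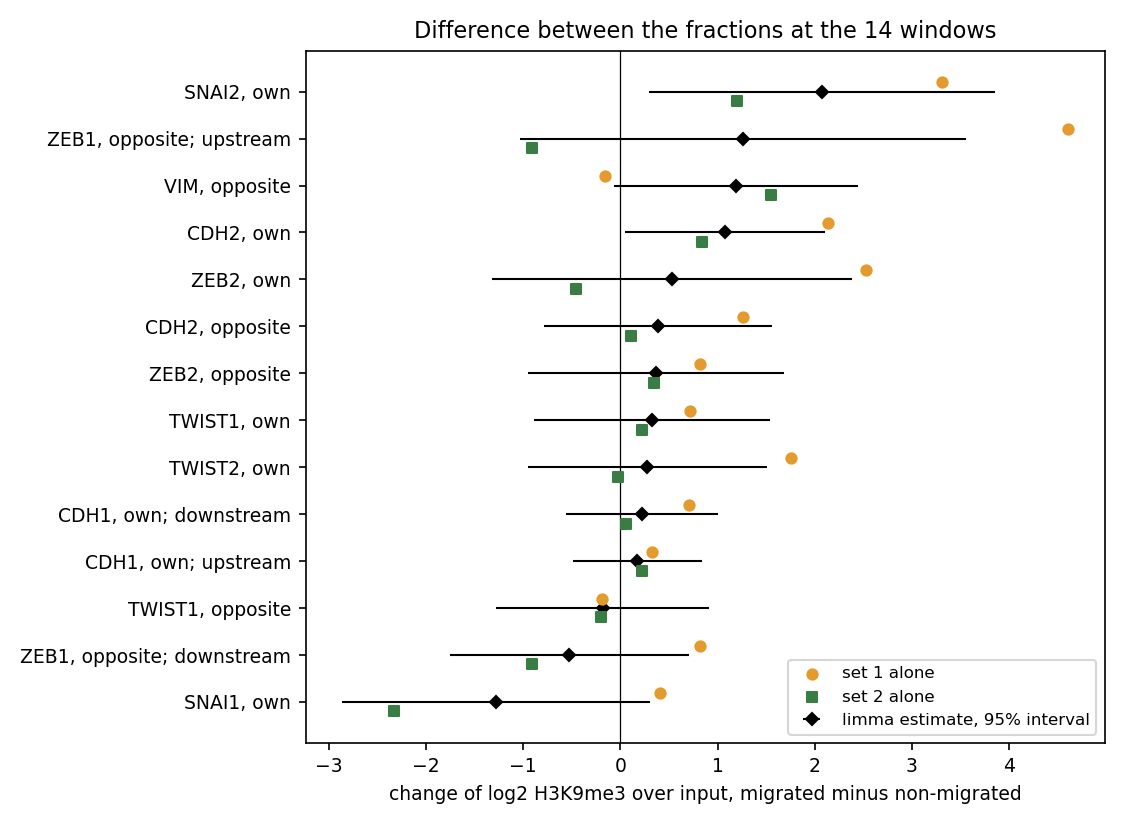
Change of H3K9me3 over input from non-migrated to migrated cells (x axis, log2) at the 14 windows (y axis), with limma's estimate and 95% interval in black, set 1 alone as orange circles and set 2 alone as green squares. Only the intervals of SNAI2 and of the own-strand window of CDH2 lie off 0, and none of the 14 changes passed the adjusted threshold.

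Other genes of the switch were read from 6 lists, 1 window per gene. It lay on the gene's own strand where RefSeq gives the strand and such a window was tested, and otherwise on either strand. Among several such windows, the one with the most reads over all 8 libraries was taken. Those reads include the H3K9me3 libraries, so the choice can favour a window with more of the mark. Among genes whose strand RefSeq gives, the window used lies on the opposite strand for OCLN, MTA1 and RBBP4. The last 2 are among the chromatin partners called lower below. Where RefSeq gives no strand, the window used can lie on either strand of the gene. Of 19 other transcription factors of the switch, 5 were called higher, 6 lower and 8 not called (median -0.31). The mark was high at genes of developmental factors, HAND2 at 5.91-fold (adjusted p = 7.2e-06), GSC at 5.39-fold (adjusted p = 2.34e-06) and HAND1 at 4.68-fold (adjusted p = 1e-05). It was low at ID3 (0.118-fold), ID1 (0.149-fold) and SNAI3 (0.250-fold); the ID proteins inhibit basic helix-loop-helix factors such as TWIST1. SNAI3, the third SNAI gene, thus had a low level as SNAI1 and SNAI2 did. Of 16 epithelial factors that oppose the switch, 2 were called higher, 1 lower and 13 not called (median -0.13). FOXA2, a forkhead factor of endodermal epithelia, was at 6.67-fold and OVOL1, an epithelial zinc finger repressor, at 2.17-fold, while ESRP2, an epithelial splicing regulator, was at 0.142-fold. MIR200B, the only window of the miR-200 family in the tables, was at -0.16 (adjusted p = 0.686).

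Of 33 epithelial junction and keratin genes, 3 were called higher, 8 lower and 22 not called (median -0.33). CLDN12, a claudin of tight junctions, was at 3.20-fold, the protease gene ST14 at 1.90-fold and CDH3, which encodes P-cadherin, at 1.46-fold. The lowest by the rule were PKP1 (0.131-fold), MUC1 (0.132-fold) and PARD6B (0.147-fold). CDH1, not called, fell between these groups. Of 35 mesenchymal effectors, 5 were called higher, 12 lower and 18 not called (median -0.65). Of its 3 cadherin genes, CDH4 was at 3.92-fold and CDH11 at 2.88-fold, both called, and CDH5 at 1.13-fold, not called; the fibrillin gene FBN1 was at 3.48-fold. TNC, which encodes the matrix protein tenascin C, was at 0.119-fold and the integrin gene ITGAV at 0.161-fold.

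Among 10 catenins and cadherin partners, 2 were called higher, 1 lower and 7 not called (median -0.36). CTNND2 was at 3.61-fold and CTNNA2 at 3.33-fold, both catenins of neural tissue, and NUMB, an endocytic adaptor, at 0.477-fold. Of 28 chromatin partners of the SNAI, ZEB and TWIST repressors, 3 were called higher, 15 lower and 10 not called (median -1.13). The corepressor gene CTBP1 was at 4.97-fold, the H3K9 methyltransferase gene EHMT1 at 2.84-fold and the deacetylase gene HDAC2 at 2.44-fold, while SIN3A was at 0.131-fold, CTBP2 at 0.157-fold and PRMT5 at 0.165-fold. No gene of any list was called for a change between the fractions. Beside these counts, 20.8% of all tested windows were called higher and 29.9% lower, with a median of -0.13. The 13119 own-strand windows of genes whose strand RefSeq gives are nearer in kind to the lists, but they were not chosen by reads. Of these, 16% were called higher and 36.6% lower, with a median of -0.45.

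**Figure D5:**
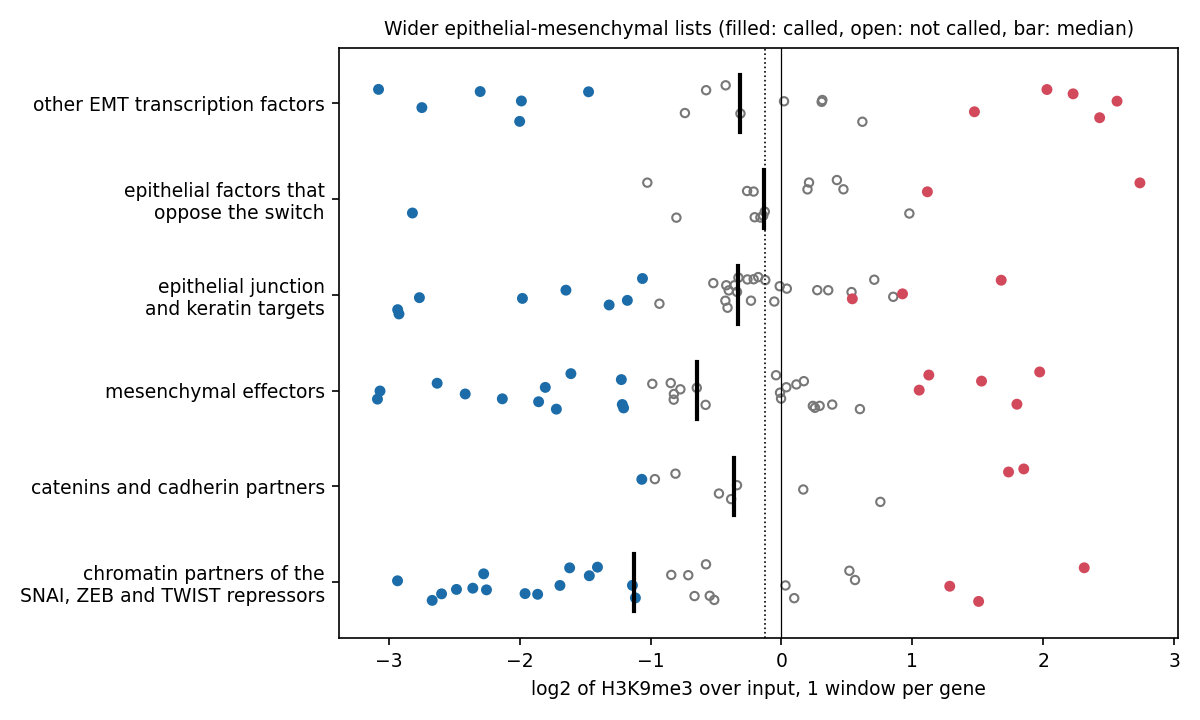
H3K9me3 over input (x axis, log2, mean of both fractions) of the genes of 6 wider lists (y axis; the vertical scatter carries no value). Filled red points were called higher, filled blue points lower and open points not called, black bars are list medians from -1.13 (chromatin partners) to -0.13 (epithelial factors), and the dotted line is the median of all tested windows.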

How the data were processed

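The deposited tables give 1 value per promoter window and library in hg19, which per the file headers are log2 values. Bowtie2 2.2.9, SAMtools 1.3 and FastQC 0.11.5 are listed, without their roles, per the submitters' processing notes; for the read counter, no program is named in the sources used here. Subtracting 1 constant from each library and undoing the log2 gave whole reads for 100% of values within 0.01, with 0 reads entered as 0.9. Because the deposited unit is log2, the recovered reads were tested with limma 3.58.1 (R 4.3.3) and not with a count model: log2 of reads plus 0.5 per TMM-scaled library (30% of ratios and 5% of levels trimmed), with voom precision weights. Windows had to pass the level of 10 reads in a median library in at least 2 libraries and a total of 15 reads. The model held set, H3K9me3 against input, set by H3K9me3, fraction and fraction by H3K9me3, with 2 residual and 22.2 prior degrees of freedom. The set was kept as a block, since the series is described as paired; the correlation of deviations within a set over windows, which are no replicates, was 0.147 in H3K9me3 and 0.469 in input libraries.

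Every window of the 9 genes was described. From the lists up to 3 genes per direction were named, those with the smallest adjusted p and the same sign in both sets, with the 2 most alike promoters and the nearest windows of called members. A gene that this rule names is not reported here. Members and lists were chosen with earlier results of these data known. Promoter sequences were joined by symbol; CDH1, SNAI1, SNAI2 and TWIST1 have no entry. The scripts were tested on simulated data. Set 2 was labelled a second biological replicate. Counting intervals are exact binomial (Clopper-Pearson) at 95% and cover counting error only. Other scalings, filters, pseudocounts, weights, models and left-out libraries were tried.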

Additional observations from a re-analysis of the deposited data

How the results depend on the processing

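Calls within and over the fractions moved with the scaling, and calls for a change with single H3K9me3 libraries; why the deposited constants differ from TMM was not tested. With the deposited scaling 0 of the 14 windows were called higher and 6 lower over both fractions, 0 were called higher in either fraction, and 3 were called lower in migrated cells. Values that changed sign with it were, over both fractions, TWIST2 (-0.81), TWIST1 on the opposite strand (-0.26), VIM (-0.055) and CDH1 upstream (-0.60); in non-migrated cells, TWIST2 (-0.73), VIM (-0.074) and CDH1 upstream (-0.27). In migrated cells they were TWIST2 (-0.90), TWIST1 on the opposite (-0.79) and own strand (-1.42), VIM (-0.036), ZEB1 upstream (-1.06) and downstream (-0.28), CDH1 upstream (-0.93) and downstream (-1.50) and CDH2 on the opposite strand (-0.052). For the change they were ZEB2 on the opposite (-0.32) and own strand (-0.081), TWIST2 (-0.16), TWIST1 on its own strand (-0.43), CDH1 upstream (-0.66) and downstream (-0.54) and CDH2 on the opposite strand (-0.31). With scaling to the promoters of ribosomal protein and oxidative phosphorylation genes, which shifted the median of all windows by 0.63, 1 window was called lower over both fractions, 6 higher and 1 lower in non-migrated cells and 7 higher in migrated cells. ZEB2 on its own strand (0.17), TWIST1 on its own strand (0.61), ZEB1 upstream (0.28) and CDH1 downstream (0.56) turned positive over both fractions, TWIST1 on its own strand (0.44) and CDH1 downstream (0.43) in non-migrated cells, and ZEB2 on its own strand (0.46) and SNAI2 (0.023) in migrated cells. Median-of-ratios scaling, with a shift of -0.31, turned TWIST2 in non-migrated cells (-0.082) and TWIST1 on its own strand (-0.18), ZEB1 upstream (-0.087) and CDH1 downstream (-0.29) in migrated cells negative. TMM over the tested windows only, chosen after seeing the data, shifted the median by -0.22 and turned TWIST1 on its own strand (-0.084) and CDH1 downstream (-0.19) negative in migrated cells.

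Adding 2 reads in place of 0.5 gave 5 windows called higher in non-migrated and 7 in migrated cells, and turned TWIST1 on its own strand (0.25), ZEB1 upstream (0.26) and CDH1 downstream (0.0029) positive over both fractions, TWIST1 on its own strand in non-migrated cells (0.076) and ZEB2 on its own strand in migrated cells (0.16). Without precision weights 1 window was called higher and 1 lower in non-migrated cells, where TWIST2 was at -0.10. Without the replicate block 1 window was called lower in non-migrated cells, SNAI1 (-1.60) no longer being called, TWIST1 on its own strand was at 0.13 over both fractions and ZEB1 upstream at -0.10 in migrated cells, and the fit without the block changed no other call of the 14 windows. Without the filter on low reads no call of theirs changed. The quasi-Poisson model was run for the mean of both fractions only, because it failed on simulated counts for the other comparisons.

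When each library was left out in turn, 2 to 6 windows were called higher and 2 to 3 lower over both fractions, 0 to 4 and 0 to 3 in non-migrated cells and 1 to 6 and 0 to 1 in migrated cells, and 0 to 1 was called for a higher change. Signs differed among these fits over both fractions for TWIST1 on its own strand (-0.14 to 0.067), ZEB1 upstream (-1.55 to 0.92) and CDH1 downstream (-0.20 to 0.034), and in non-migrated cells for TWIST2 (-0.64 to 0.65), VIM (-0.13 to 1.48) and ZEB1 upstream (-3.68 to 1.15). In migrated cells they differed for ZEB2 on its own strand (-1.01 to 0.88), TWIST1 on its own strand (-0.019 to 0.34), SNAI2 (-1.30 to 0.16), ZEB1 upstream (-1.89 to 3.03) and CDH1 downstream (-0.16 to 0.26). For the change they differed for ZEB2 on the opposite (-0.61 to 1.65) and own strand (-0.023 to 1.87), VIM (-0.029 to 1.47), ZEB1 upstream (-0.69 to 4.25) and downstream (-0.86 to 0.38), CDH1 upstream (-0.20 to 0.68) and SNAI1 (-2.30 to 0.31).

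Counts over all windows moved too. Over both fractions 340 were called higher and 19685 lower with the deposited scaling, 14292 and 6431 with ribosomal and oxidative phosphorylation scaling, 5039 higher with median-of-ratios scaling, 12169 higher with 2 reads added, and 3953 to 9215 higher when a library was left out. In non-migrated cells the same settings gave 142, 10657, 2620 and 8494 higher, 3635 lower with the ribosomal and oxidative phosphorylation scaling, 2203 higher and 4065 lower without the replicate block, 4096 lower without weights, and 154 to 7144 higher and 946 to 9305 lower without 1 library. In migrated cells 35 higher and 19911 lower were called with the deposited scaling, 11151 and 4459 with the ribosomal and oxidative phosphorylation scaling, 10131 and 5164 with 2 reads added, 3880 and 5583 without the replicate block, and 1306 to 6595 and 1951 to 11424 without 1 library. Calls for a change numbered 105 higher and 143 lower without the non-migrated H3K9me3 library of set 2, 13 and 87 when that of migrated cells in set 1 was left out, and 1 higher with 2 reads added. Higher calls made up 41.0% of all calls over both fractions, and 1.70%, 69.0%, 26.9%, 59.4% and 31.0% with the deposited, ribosomal and oxidative phosphorylation and median-of-ratios scalings, 2 reads added and TMM over the tested windows. In the wider lists, taking the window with the most reads on either strand moved no count over both fractions by more than 1.5 times. In the catenin list, calls in non-migrated cells went from 2 to 1 higher and from 0 to 1 lower, and in migrated cells from 0 to 1 lower. Depth limits all of this: none of the 14 windows had more than 14 reads in an H3K9me3 library of set 1.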
